A study of Danio rerio with 35 samples.

Results

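The genes described here are 7 genes of the dorsal organizer of the zebrafish embryo, chosen by name for what they are known to mark: chrd (ENSDARG00000006110), dkk1b (ENSDARG00000045219), admp (ENSDARG00000025372), gsc (ENSDARG00000059073), noto (ENSDARG00000021201), foxa3 (ENSDARG00000012788) and foxd3 (ENSDARG00000021032). All 7 were found among the 27151 exon entries that stand for a single gene. Of these, 6 also had an intron entry, and foxd3 had none. The rule uses names alone, but the genes were chosen with earlier results of these data known.

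The organizer is the signalling centre on the dorsal side of the early gastrula, which is called the shield in fish. Maternal beta-catenin and Nodal signals from the yolk side induce it, and it patterns the embryo by opposing BMP and Wnt signals from the ventral side. Chordin (chrd) binds BMP ligands outside the cell, and Dkk1 (dkk1b) blocks Wnt receptors. Admp is itself a ligand of the BMP family that is made in the organizer. The transcription factors gsc (prechordal plate), noto (notochord), foxa3 (axial mesendoderm) and foxd3 (organizer and, later, neural crest) are made in its cells.

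The study asked how the maternal transcription factors Nanog, SoxB1 and Pou5f1 act as the zygotic genome is switched on. RNA was taken from whole embryos, 5 per library, and 31 messenger RNA libraries were used: 24 of total RNA depleted of ribosomal RNA and 7 of poly(A)+ RNA. Levels are in RPKM, reads per kilobase of transcript scaled to library size, so that genes can be compared per length. Because whole embryos were lysed, fewer organizer cells and less RNA per cell cannot be told apart in any comparison.

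The losses of function were a mutant and 2 sets of morpholinos (MO), antisense oligonucleotides injected at the 1-cell stage. Embryos named MZpou5f1 carry the hi349Tg allele on both chromosomes, and lack maternal and zygotic pou5f1, the gene listed as pou5f3 in the annotation. All other embryos are of the strain TUAB. At 4 hours post fertilization (hpf), in the blastula, total RNA was sequenced from MZpou5f1 Nanog+SoxB1 MO embryos (the triple loss) with and without injected rescue mRNA, and from MZpou5f1 SoxB1 MO, MZpou5f1 Nanog MO, MZpou5f1, Nanog+SoxB1 MO, SoxB1 MO and Nanog MO embryos. It was also sequenced from embryos given MO against the splicing RNAs U1 and U2 (U1U2 MO), from embryos bathed in cycloheximide (a translation inhibitor) from early cleavage, from embryos injected with alpha-amanitin, which blocks RNA polymerase II, and from WT embryos, with 1 library each. At 6 hpf, at the shield stage, total RNA came from the triple loss, MZpou5f1 SoxB1 MO, MZpou5f1, Nanog MO, cycloheximide and alpha-amanitin (1 library each), Nanog+SoxB1 MO (n = 2) and WT (n = 3). WT at 2 hpf had 1 library of total RNA. Poly(A)+ RNA came from WT at 4 hpf and from the rescued triple loss, the triple loss and WT at 6 and 8 hpf, with 1 library each. The WT embryos are labelled as untreated, not as injected controls, and the labels do not say which messages the rescue mRNA held.

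Replicates correlated at r = 0.972 for Nanog+SoxB1 MO and 0.966 to 0.977 for WT over the genes tested. They are labelled only as separate samples, so p-values measure the spread between these samples. Relative depth, read from the smallest steps in the values, ran from 0.227 times (Nanog+SoxB1 MO replicate 1 at 6 hpf) to 2.60 times (cycloheximide at 4 hpf) that of the WT total RNA library at 4 hpf. The mutated gene, pou5f3, was at 4.32, 4.63 and 0.646 RPKM in the MZpou5f1, MZpou5f1 SoxB1 MO and triple loss libraries at 6 hpf, against 394 to 488 RPKM in WT. At 4 hpf the library labelled MZpou5f1 held 28.0 RPKM, against 157 RPKM in WT, while the MZpou5f1 SoxB1 MO, MZpou5f1 Nanog MO and triple loss libraries held 1.87, 0.088 and 0.235 RPKM. Terms at 4 hpf are therefore also given without the library labelled MZpou5f1 where it bears on a call. A MO that blocks translation leaves the message in place, so transcript levels are no check on Nanog MO or SoxB1 MO. In the rescued triple loss at 4 hpf, pou5f3 was at 819 RPKM, nanog at 2395 RPKM and sox19b, a SoxB1 gene, at 574 RPKM, against 157, 598 and 325 RPKM in WT.

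In WT embryos the 7 genes came on between 2 and 4 hpf. At 2 hpf gsc was at 0.25 RPKM and the other 6 genes were listed at 0, in 1 library. At 4 hpf noto was the highest in total RNA, at 36.6 RPKM, followed by chrd at 14.2, foxd3 at 10.3, admp at 10.2, dkk1b at 8.97, gsc at 8.37 and foxa3 at 2.31 RPKM. All 7 passed the test as higher at 4 than at 2 hpf (limma, adjusted p from 2.73e-05 for noto to 0.00569 for foxd3), where 3.39% of 16542 genes did. Both stages have 1 WT library, assumed to vary like the replicated conditions at 6 hpf.

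By 6 hpf the order had changed. In the 3 WT libraries chrd, the BMP antagonist, was at 153, 154 and 104 RPKM (137 ± 28.7, SD, n = 3) and noto at 89.7, 101 and 109 RPKM (99.8 ± 9.70), so that their ranges overlap. The forkhead gene foxa3 was at 48.5, 48.3 and 52.0 RPKM and dkk1b at 37.4, 35.7 and 50.6 RPKM, also overlapping. The homeobox gene gsc was at 28.7, 37.1 and 29.8 RPKM, below foxa3 in every library and overlapping with dkk1b. At the low end, foxd3 was at 27.4, 21.6 and 17.5 RPKM and admp at 20.1, 19.1 and 17.4 RPKM, and these overlap too. From 4 to 6 hpf, 6 of the 7 genes rose (limma, log2 differences on the scale of RPKM + 0.5), where 20.7% of genes rose and the median gene moved by -0.36. The steepest was foxa3, at 4.16 ± 0.23 (SE; adjusted p = 7.4e-05), then chrd at 3.20 ± 0.26, dkk1b at 2.12 ± 0.28, gsc at 1.86 ± 0.27 and noto at 1.43 ± 0.16. The smallest was admp at 0.85 ± 0.29 (adjusted p = 0.0446), a call lost when each of the 5 replicates was left out in turn (adjusted p of 0.0503 to 0.106). The 7th, foxd3, was at 1.04 ± 0.43 (adjusted p = 0.0765), and it passed at 1.42 (adjusted p = 0.0235) once libraries were scaled to a common median.

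Poly(A)+ RNA gave another order at the same stages. At 4, 6 and 8 hpf in WT, chrd was at 5.09, 133 and 135 RPKM, foxa3 at 2.89, 80.3 and 108 RPKM, and admp at 13.8, 25.6 and 40.9 RPKM, each highest at the last stage. So was noto, at 35.8, 52.9 and 70.3 RPKM, which was also the highest of the 7 genes at 4 hpf. In contrast gsc, at 10.1, 14.9 and 12.9 RPKM, and dkk1b, at 6.83, 15.6 and 9.88 RPKM, were highest at 6 hpf, as was foxd3 at 19.4, 38.4 and 32.8 RPKM. The 1 WT library a stage allows no test of these turns. The plot of all libraries shows the genes side by side.

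**Figure D1:**
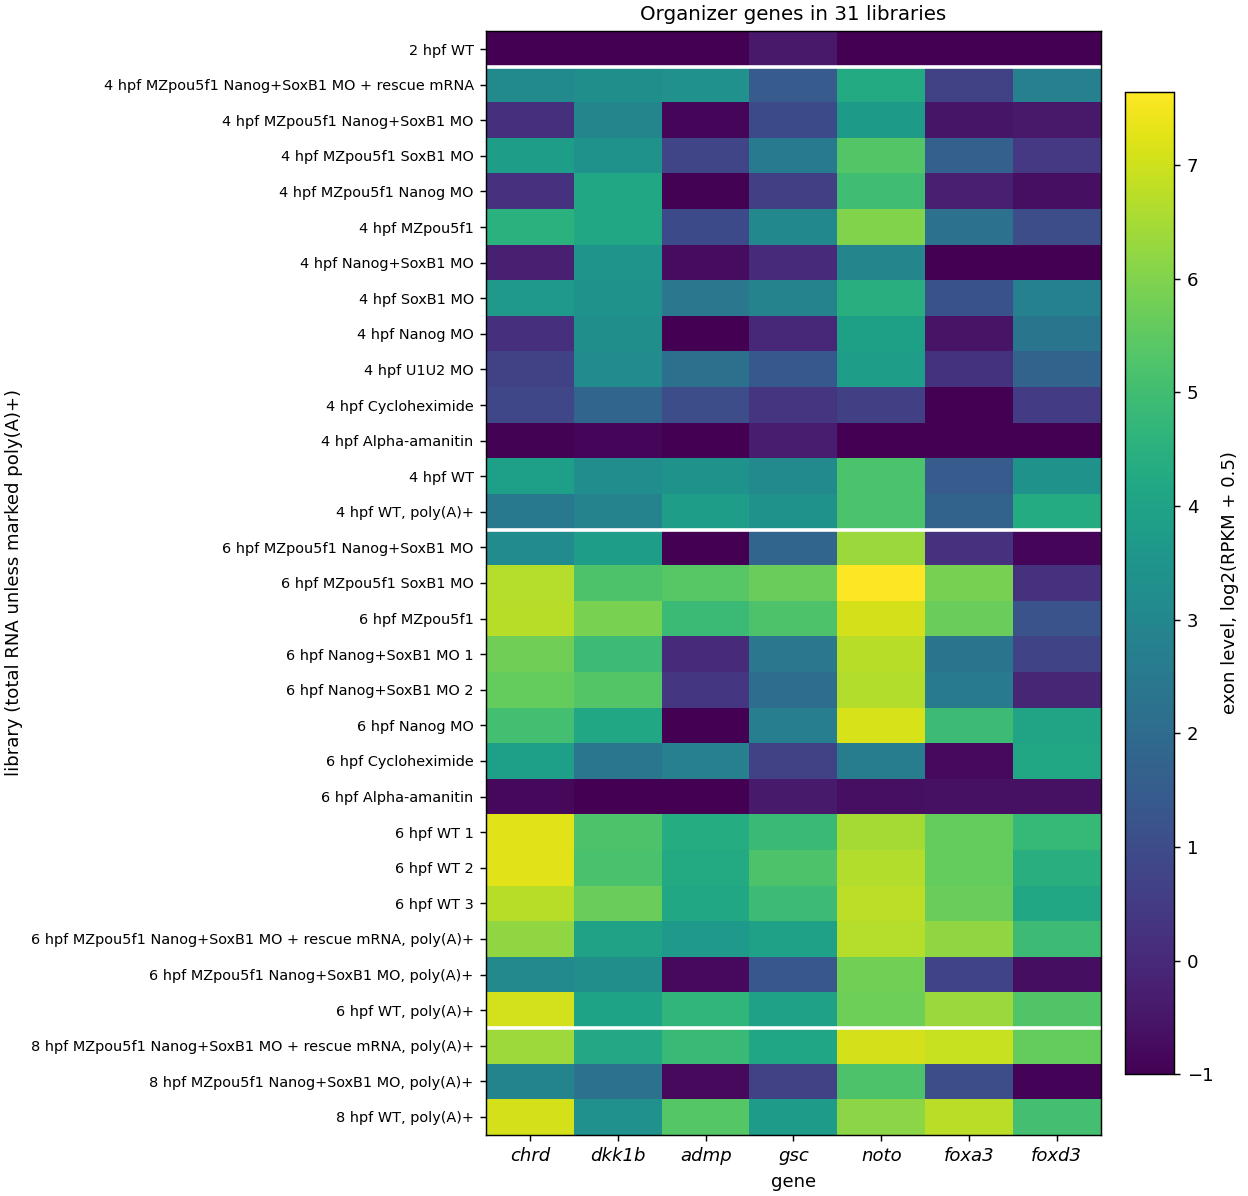
Exon level of the 7 organizer genes as log2(RPKM + 0.5), from dark (low) to yellow (high), in each of 31 libraries, with white lines between stages. The column of admp is dark wherever Nanog MO was used without rescue, that of noto is dark only in WT at 2 hpf, cycloheximide at 4 hpf and alpha-amanitin, and foxd3 is at 1.796 RPKM or lower in every MZpou5f1 library without rescue.

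At 6 hpf, joint loss of Nanog and SoxB1 lowered 5 of the 7 genes, while noto and dkk1b did not pass the test. The BMP ligand admp was at 0.522 and 0.788 RPKM in Nanog+SoxB1 MO embryos, against 20.1, 19.1 and 17.4 RPKM in WT. The forkhead gene foxd3 was at 1.20 and 0.453 RPKM in Nanog+SoxB1 MO, against 27.4, 21.6 and 17.5 RPKM in WT, and foxa3 at 4.56 and 5.50 RPKM, against 48.5, 48.3 and 52.0 RPKM. Each of the 3 genes lay far below the lowest WT library in both Nanog+SoxB1 MO libraries. The prechordal gene gsc was at 4.87 and 3.76 RPKM in Nanog+SoxB1 MO, against 28.7, 37.1 and 29.8 RPKM in WT. For chrd the values were 54.6 and 48.5 RPKM in Nanog+SoxB1 MO, against 153, 154 and 104 RPKM in WT. These groups did not overlap either, and the fold difference of chrd was the smallest of the 5.

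The log2 differences, Nanog+SoxB1 MO minus WT, were -4.13 ± 0.34 (SE) for foxd3 (limma, adjusted p = 0.000243), -4.08 ± 0.23 for admp (8.67e-05), -3.18 ± 0.17 for foxa3 (6.56e-05), -2.75 ± 0.20 for gsc (0.000181) and -1.38 ± 0.20 for chrd (0.00198). In this comparison 14% of 16242 genes were called lower and 30.3% higher, and the median difference was -2.75 over the 7 genes and 0.30 over all genes. The 5 calls remained without each replicate in turn. The notochord gene noto was at 105 and 98.9 RPKM in Nanog+SoxB1 MO, against 89.7, 101 and 109 RPKM in WT, so that both libraries lay within the WT range, with a difference of 0.03 ± 0.12 (adjusted p = 0.845). The Wnt antagonist dkk1b was at 29.8 and 40.2 RPKM in Nanog+SoxB1 MO, against 37.4, 35.7 and 50.6 RPKM in WT, overlapping, with a difference of -0.23 ± 0.21 (adjusted p = 0.403).

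Nanog MO alone, with 1 library at 6 hpf, differed from the joint loss in both forkhead genes. In Nanog MO foxd3 was at 15.9 RPKM and foxa3 at 29.6 RPKM, both well above the Nanog+SoxB1 MO libraries. Set against Nanog MO directly, foxd3 was lower in Nanog+SoxB1 MO, with a difference of -3.69 ± 0.45 (adjusted p = 0.0226), and so was foxa3, with -2.45 ± 0.22 (adjusted p = 0.0104), where 0.616% of genes were called lower. Both calls were lost when either Nanog+SoxB1 MO replicate was left out, which leaves 1 library on each side. That of foxd3 was also lost without WT replicate 1 (adjusted p of 0.0644), and both without WT replicate 2 (0.0587 for foxa3 and 0.0848 for foxd3). Over 11 settings the differences ran from -2.57 to -2.33 for foxa3 and from -4.24 to -3.24 for foxd3. The other 5 genes did not pass in that contrast.

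Against the same 3 WT libraries, 5 genes were called lower in Nanog MO, where 10.1% of genes were. The ligand admp was listed at 0 in Nanog MO, so no fold is given. In Nanog MO gsc was at 5.94 RPKM, with a difference of -2.32 ± 0.26 (adjusted p = 0.00187), and chrd at 32.6 RPKM, with -2.03 ± 0.25 (0.00253). Both lay below every WT library. The level of dkk1b was 17.5 RPKM in Nanog MO, against at least 35.7 RPKM in WT, with a difference of -1.19 ± 0.27 (0.018, and 0.0771 without the filter on low values). The difference of foxa3, -0.73 ± 0.21, was called at an adjusted p of 0.0401 and lost when each of the 5 replicates was left out in turn (0.0546 to 0.0937). The Nanog MO library held 139 RPKM of noto, above the 3 WT libraries, with a difference of 0.48 ± 0.15 (adjusted p = 0.057, and 0.0288 without WT replicate 3). For foxd3 it was -0.44 ± 0.42 (0.46).

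Loss of Pou5f1 left 6 of the genes uncalled at 6 hpf and lowered foxd3. In MZpou5f1 embryos foxd3 was at 1.796 RPKM, against 17.5 to 27.4 RPKM in WT, with a difference of -3.28 ± 0.42 (adjusted p = 0.0129, and 0.051 without Nanog+SoxB1 MO replicate 2), where 2.73% of genes were called lower. The other levels in MZpou5f1 were 104 RPKM for chrd, 59.6 for dkk1b, 29.3 for admp, 37.3 for gsc, 135 for noto and 50.9 for foxa3. Of these, admp, dkk1b, gsc and noto lay above every WT library, and none passed the test (adjusted p of 0.144 to 0.929 for the 6 genes). The median difference was 0.23 over the 7 genes and 0.15 over all genes.

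The MZpou5f1 SoxB1 MO library at 6 hpf held the highest noto level of the total RNA series. The differences given here are from WT, and what SoxB1 MO adds to MZpou5f1 was not tested. In MZpou5f1 alone noto was at 135 RPKM, admp at 29.3 RPKM and foxd3 at 1.796 RPKM. In MZpou5f1 SoxB1 MO at 6 hpf noto was at 199.7 RPKM, against 89.7 to 109 RPKM in WT, with a difference of 1.00 ± 0.15 (adjusted p = 0.0074), where 16.6% of genes were called higher. The level of admp was 41.7 RPKM, against 17.4 to 20.1 RPKM in WT, with a difference of 1.13 ± 0.29 (adjusted p = 0.0333). That call was lost at a common median (0.89, adjusted p = 0.0704) and without each of the 5 replicates in turn (0.0506 to 0.0782). The difference of foxd3 was -4.23 ± 0.42 (0.00212), at 0.688 RPKM in MZpou5f1 SoxB1 MO, where 9.04% of genes were called lower. The other 4 genes did not pass (adjusted p of 0.106 to 0.696), and chrd, at 101 RPKM in MZpou5f1 SoxB1 MO, passed as lower without WT replicate 3 (-0.59, adjusted p = 0.0293).

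In the triple loss at 6 hpf 6 of the 7 genes were called lower, where 15.7% of genes were. In that library admp was listed at 0, foxd3 was at 0.061 RPKM and foxa3 at 0.675 RPKM, against a WT mean of 18.9, 22.2 and 49.6 RPKM. The levels of gsc and chrd were 3.04 and 8.54 RPKM, with differences of -3.18 ± 0.26 and -3.90 ± 0.25, and dkk1b was at 13.8 RPKM, with -1.53 ± 0.27 (adjusted p = 0.00427). Each of the 6 lay below all WT libraries. The level of noto was 81.3 RPKM in the triple loss, against 89.7 to 109 RPKM in WT, with a difference of -0.29 ± 0.15 (adjusted p = 0.157). At a common median the difference of noto was -0.69 (adjusted p = 0.0086), since the median gene stood at 0.40 in this comparison. The comparisons at 6 hpf share the same 3 WT libraries, and conditions with 1 library were assumed to vary like the replicated ones.

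**Figure D2:**
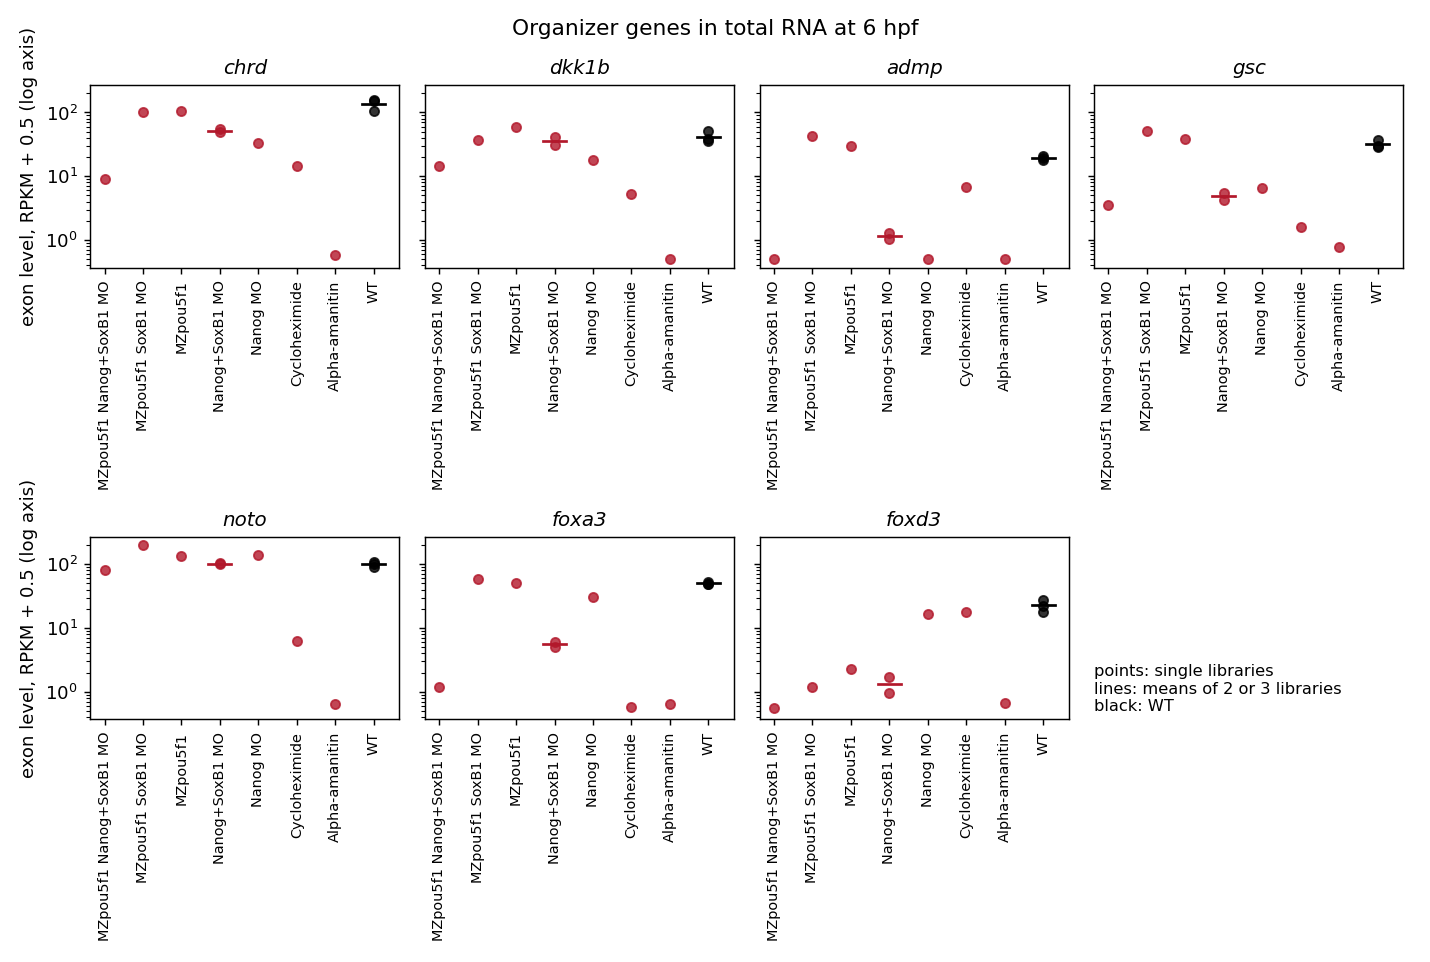
Exon level (RPKM + 0.5, log axis) of each organizer gene in total RNA at 6 hpf, by condition, with 1 point per library and a line at the mean where a condition has 2 or 3 libraries (WT in black at the right). The Nanog+SoxB1 MO points of noto, at 105 and 98.9 RPKM, lie within the WT range, while those of admp, at 0.522 and 0.788 RPKM, lie far below it.

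At 4 hpf, 8 total RNA libraries hold every combination of the 3 losses, with 1 library each. The additive fit sets 4 libraries with a loss against 4 without it, and its spread also holds effects that are not additive. Nanog MO lowered chrd in every background. Its level was 0.652 RPKM in Nanog MO, against 14.2 in WT, 0.344 in Nanog+SoxB1 MO, against 11.995 in SoxB1 MO, 0.686 in MZpou5f1 Nanog MO, against 22.7 in the library labelled MZpou5f1, and 0.611 in the triple loss, against 13.6 in MZpou5f1 SoxB1 MO. The 4 libraries with Nanog MO were all under 1 RPKM, and the Nanog MO term of chrd was -3.88 ± 0.15 (adjusted p = 5.16e-06).

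The pattern of gsc was the same in kind: 0.466, 0.546, 1.07 and 1.42 RPKM in the Nanog MO, Nanog+SoxB1 MO, MZpou5f1 Nanog MO and triple loss libraries, against 5.41 to 8.37 RPKM in the 4 libraries without Nanog MO. Its term was -2.50 ± 0.24 (adjusted p = 0.000909). The low gene foxa3 was at 0 to 0.345 RPKM with Nanog MO, against 1.74 to 4.13 RPKM without it, and its term was -2.21 ± 0.17 (0.000279). For noto the levels with Nanog MO were 14.5, 7.08, 31.1 and 12.5 RPKM, against 36.6, 20.7, 64.5 and 40.1 RPKM in the matching libraries without it. These ranges overlap, but within each pair noto was lower with Nanog MO, and its term was -1.37 ± 0.10 (0.000201).

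For admp the 4 libraries with Nanog MO were at 0, 0.105, 0.016 and 0.053 RPKM. Those without it were at 10.2 in WT, 4.93 in SoxB1 MO, 1.44 in the library labelled MZpou5f1 and 1.23 in MZpou5f1 SoxB1 MO, so that both MZpou5f1 libraries were already low. The Nanog MO term of admp was -2.79 ± 0.42 (adjusted p = 0.00741). In all, 5 of the 7 genes were called lower in the Nanog MO term, where 2.34% of 14498 genes were, and the median was -2.21 over the 7 genes and 0.02 over all genes. Without the library labelled MZpou5f1 the count was also 5, and the term of chrd was -3.77.

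The Wnt antagonist dkk1b was at 9.49, 10.6, 17.7 and 7.24 RPKM with Nanog MO, against 8.97, 10.2, 17.1 and 10.01 RPKM without it. The ranges overlap and the pairs differed in both directions, and the term was -0.07 ± 0.23 (adjusted p = 0.893). For foxd3 the levels with Nanog MO were 4.66, 0, 0.146 and 0.245 RPKM, against 10.3, 6.49, 1.58 and 0.864 RPKM without it. It was lower with Nanog MO in each pair, but its term, -1.86 ± 0.53, did not pass (adjusted p = 0.0755). It passed without the Nanog MO library (-2.28, adjusted p = 0.0408) or the Nanog+SoxB1 MO library (-1.15, adjusted p = 0.0412).

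The MZpou5f1 term at 4 hpf was called for 3 of the 7 genes, in both directions and close to the shares of all genes. It raised noto by 0.90 ± 0.10 (adjusted p = 0.000242, and 0.97 without the library labelled MZpou5f1) and foxa3 by 0.50 ± 0.17 (0.0431), where 24.1% of genes were called higher. It was lower for foxd3, at -1.79 ± 0.53 (0.0264), where 18% were called lower. In the 4 libraries of the MZpou5f1 background foxd3 was at 0.146 to 1.58 RPKM, against 0, 4.66, 6.49 and 10.3 RPKM in the 4 others. The calls of foxa3 and foxd3 were lost without the library labelled MZpou5f1 (0.44, adjusted p = 0.115, and -1.52, adjusted p = 0.0785), and the call of foxa3 also when each of the other 7 libraries was left out in turn (0.056 to 0.125). That of foxd3 was also lost without WT, Nanog MO, SoxB1 MO, MZpou5f1 Nanog MO or MZpou5f1 SoxB1 MO (0.06 to 0.0848). For admp the term was -1.05 ± 0.42 (adjusted p = 0.0768), and -0.79 (0.204) without the library labelled MZpou5f1. It passed without the Nanog MO library (-1.42, 0.0235) or the triple loss library (-1.37, 0.0422), and ran from -1.42 to -0.60 over 13 settings.

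The SoxB1 MO term was called for 1 gene, noto, at -0.94 ± 0.10 (adjusted p = 0.0329), where 0.0552% of genes were called lower. In each pair noto was lower with SoxB1 MO: 20.7 against 36.6 RPKM, 7.08 against 14.5 RPKM, 40.1 against 64.5 RPKM in the library labelled MZpou5f1, and 12.5 against 31.1 RPKM. The call was lost when each library was left out in turn (adjusted p of 0.0513 to 0.183), with values of -0.85 to -1.01. In those fits 0 to 1 of all genes were called. Whether the Nanog MO difference depended on the MZpou5f1 background was tested with an interaction, and no organizer gene passed (limma, adjusted p of 0.451 to 0.934), while 1 of 14498 genes (0.0069%) did and 1416 were under an unadjusted p of 0.05. With Nanog MO the mean of admp was 0.0345 RPKM in the MZpou5f1 background and 0.0525 RPKM in the WT background. Without Nanog MO the means were 1.34 and 7.57 RPKM, so with 0.5 added the drop was bounded at a smaller size in MZpou5f1. The interaction was widest for admp, at 2.01 ± 0.48, a value that this bound affects, and for gsc it was 0.98 ± 0.35. Without the library labelled MZpou5f1 they were 1.99 and 1.25, and again no organizer gene passed (adjusted p of 0.26 to 0.983).

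**Figure D3:**
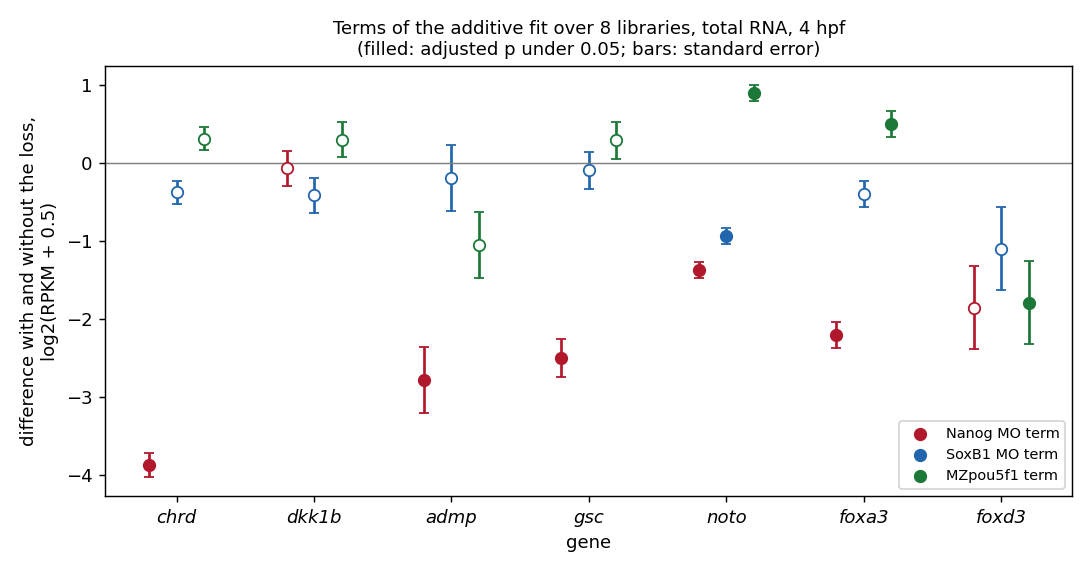
Difference with minus without each loss (log2 of RPKM + 0.5, additive fit over 8 total RNA libraries at 4 hpf) for each organizer gene, with standard errors and filled points where the adjusted p is under 0.05. The Nanog MO term runs from -3.88 for chrd to -0.07 for dkk1b, and the MZpou5f1 term is above 0 for noto and below 0 for foxd3.

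The difference of a loss from WT at 6 hpf was set against that at 4 hpf gene by gene. The genes were not tested against each other. In Nanog+SoxB1 MO noto was at 7.08 RPKM at 4 hpf, against 36.6 RPKM in WT, and within the WT range at 6 hpf. The test of that difference between stages, chosen after the values were seen, gave 2.32 ± 0.24 (adjusted p = 0.0137), where 6.25% of 17129 genes were called higher. For chrd it gave 2.74 ± 0.42 (adjusted p = 0.0239), with 0.344 RPKM in Nanog+SoxB1 MO against 14.2 in WT at 4 hpf and a mean of 51.6 RPKM against 137 at 6 hpf. Both calls were lost without either Nanog+SoxB1 MO replicate, which leaves 1 library of that condition at each stage. They were also lost without WT replicate 2 (adjusted p of 0.0574 and 0.0668), and that of chrd without WT replicate 1 (0.0533). Over 11 settings the values ran from 2.0 to 2.39 for noto and from 2.13 to 3.62 for chrd. For admp the same test gave 0.07 ± 0.41 (adjusted p = 0.93), with the gene under 1 RPKM in Nanog+SoxB1 MO at both stages. The 4 hpf side of each test rests on 1 library of each condition.

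In Nanog MO the same test gave 1.78 ± 0.26 for noto (adjusted p = 0.0414), where 1.34% of genes were called higher, with 14.5 RPKM in Nanog MO against 36.6 in WT at 4 hpf and 139 RPKM against a mean of 99.8 at 6 hpf. In the triple loss it gave 1.22 ± 0.26 for noto (adjusted p = 0.036), where 9.9% were called higher, and -3.41 ± 0.40 for foxa3 (0.014), where 5.28% were called lower. Thus noto was nearer to WT at 6 than at 4 hpf in these losses of Nanog. The foxa3 difference was bounded at 4 hpf, with 0.199 RPKM in the triple loss, 2.31 RPKM in WT and 0.5 added before the log. At 6 hpf the triple loss held 0.675 RPKM of foxa3, against a WT mean of 49.6 RPKM. A wider loss of foxa3 and its rise in WT cannot be told apart there. The noto calls were lost without either Nanog+SoxB1 MO replicate or without WT replicate 1 or 2 (0.0824 to 0.154 in Nanog MO and 0.0583 to 0.0945 in the triple loss), and that of foxa3 without either Nanog+SoxB1 MO replicate (0.063 and 0.0639). The noto call in Nanog MO was also lost with 0.1 added to RPKM in place of 0.5, or without the limma trend. That in the triple loss was also lost at a common median or without the trend. Its value there ran from 0.82 to 1.29 over 11 settings, where the median gene moved by 0.37. All these tests share the WT libraries of both stages.

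In MZpou5f1 embryos the levels of admp lay below WT at 4 hpf and above it at 6 hpf. It was at 1.44 RPKM in the library labelled MZpou5f1 at 4 hpf, against 10.2 RPKM in WT, and at 29.3 RPKM in MZpou5f1 at 6 hpf, against 17.4 to 20.1 RPKM in WT. The difference between stages was 3.09 ± 0.45 (adjusted p = 0.0866). In MZpou5f1 SoxB1 MO it was 3.75 ± 0.45 (adjusted p = 0.0765), with 1.23 RPKM at 4 hpf and 41.7 RPKM at 6 hpf. Neither passed (limma), where 0.286% and 0% of genes were called in either direction and 2371 and 3291 were under an unadjusted p of 0.05. Both passed without the filter on low values (adjusted p of 0.0203 and 0.0134). The value of MZpou5f1 rests on the library labelled MZpou5f1 at 4 hpf and cannot be given without it. In both stages foxd3 was low in the MZpou5f1 libraries.

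Alpha-amanitin removed the organizer transcripts at both stages. At 4 hpf gsc was at 0.285 RPKM, dkk1b at 0.046 and chrd at 0.015 RPKM in alpha-amanitin, and noto, admp, foxa3 and foxd3 were listed at 0. At least 4-fold lower than WT were all 7 genes, against 5.17% of 13827 genes, with 1 library on each side and no test. At 6 hpf all 7 were called lower, where 28.7% of genes were, with dkk1b and admp listed at 0 and the others at 0.075 to 0.267 RPKM.

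Under cycloheximide the genes separated. At 4 hpf noto was at 1.07 RPKM in cycloheximide, against 36.6 in WT, and foxa3 at 0.011 RPKM, against 2.31. The levels of chrd, admp, foxd3 and gsc were 1.31, 1.57, 0.935 and 0.769 RPKM, against 14.2, 10.2, 10.3 and 8.37 RPKM in WT. These 6 were at least 4-fold lower, where 3.14% of genes were, and dkk1b, at 3.02 RPKM against 8.97, was not. At 6 hpf foxd3 was at 17.6 RPKM in cycloheximide, just above the lowest WT library, with a difference of -0.30 ± 0.42 (adjusted p = 0.563). The other 6 were called lower, where 23% of genes were. Among them admp was at 6.28 RPKM (-1.51 ± 0.29, adjusted p = 0.00401), chrd at 14.1 RPKM (-3.21 ± 0.25), noto at 5.80 RPKM (-3.99 ± 0.15), dkk1b at 4.76 RPKM (-2.97 ± 0.27) and gsc at 1.12 RPKM (-4.31 ± 0.26). At the far end foxa3 was at 0.076 RPKM in cycloheximide, against 48.3 to 52.0 RPKM in WT, with a difference of -6.44 ± 0.21 (7.87e-06). Between the stages, the cycloheximide difference moved by 2.61 ± 0.69 for foxd3 (adjusted p = 0.0404), where 19.5% of genes were called higher, and by -3.98 ± 0.40 for foxa3 (0.00553), where 10.9% were called lower. The call of foxd3 was lost when each of the 5 replicates was left out in turn (0.0543 to 0.0838), and that of foxa3 was not. With WT foxa3 at 2.31 RPKM at 4 hpf and 0.5 added before the log, the foxa3 difference at that stage was bounded. Its move between stages cannot be told apart from the rise of foxa3 in WT. Maternal markers stood apart in the cycloheximide library at 6 hpf: the sum over 7 maternal oocyte-derived genes was 4442 RPKM, against 89.8 to 189 RPKM in WT, and their part in these values was not tested.

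Introns, which are spliced out soon after transcription, gave a second view of the same genes. At 4 hpf the Nanog MO term of the introns was called lower for gsc (-4.51 ± 0.34, adjusted p = 4.02e-05), admp (-4.48 ± 0.31), chrd (-4.28 ± 0.26) and foxa3 (-1.96 ± 0.40, 0.0135), where 8.53% of 4539 introns were and the median intron stood at -0.34. The gsc introns were at 0.197 to 0.519 RPKM with Nanog MO, against 6.78 to 13.6 RPKM without it, and the chrd introns at 0.166 to 0.386 RPKM, against 6.29 to 8.58 RPKM. Neither gene's groups overlapped. The call of foxa3 was lost at a common median (-1.59, adjusted p = 0.06), without the filter on low values (-1.96, 0.135) and over the libraries without MZpou5f1 alone (-1.33, 0.196). Without the library labelled MZpou5f1 the terms were -4.27 for gsc, -4.57 for admp, -4.41 for chrd and -1.53 for foxa3 (adjusted p = 0.0307 for foxa3), and all 4 passed. The introns of noto (-2.24 ± 0.78, adjusted p = 0.115) and dkk1b (-0.22 ± 0.35, 0.722) did not pass, and those of noto passed without the Nanog+SoxB1 MO library (-3.07, 0.00907).

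At 6 hpf the introns of gsc were at 0.431 and 0.325 RPKM in Nanog+SoxB1 MO, against 5.04, 6.85 and 4.399 RPKM in WT (-3.52 ± 0.25, adjusted p = 0.00247), and those of admp at 0.183 and 0.185 RPKM, against 4.57, 4.65 and 3.61 RPKM (-3.94 ± 0.18, 0.00163). The foxa3 introns were listed at 0 in both Nanog+SoxB1 MO libraries and were at 0.915, 2.62 and 1.96 RPKM in WT, and passed as lower (0.00558). These 3 were called lower, where 22.1% of 7935 introns were. The chrd introns were at 3.05 and 4.41 RPKM in Nanog+SoxB1 MO, against 4.72, 4.85 and 3.55 RPKM in WT. They overlapped, with a difference of -0.23 ± 0.23 (adjusted p = 0.489), while the chrd exons had passed as lower. The difference between exon and intron was not tested. The noto introns ranged from 0 to 8.61 RPKM among the 3 WT libraries, which leaves the test without use for that gene (0.53 ± 1.98). The dkk1b introns were at 1.31 and 3.47 RPKM in Nanog+SoxB1 MO, against 4.61, 3.30 and 4.94 RPKM in WT (-0.94 ± 0.44, adjusted p = 0.173), and they passed as lower without Nanog+SoxB1 MO replicate 2 (-1.61, 0.0495).

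The U1U2 MO library at 4 hpf held more intron RNA of noto and dkk1b than WT. The noto introns were at 11.99 RPKM in U1U2 MO, against 3.72 RPKM in WT, while its exons were at 13.99 RPKM, against 36.6. For dkk1b the introns were at 6.95 RPKM in U1U2 MO, against 3.29 in WT, and the exons at 8.45 RPKM, against 8.97. The median of 3143 introns was -1.19 in that comparison. The ratio of intron to exon RPKM was 0.857 in U1U2 MO for noto, against 0.102 in WT, and 0.823 for dkk1b, against 0.366. The introns of the other 4 genes with an intron entry were lower in U1U2 MO, and those of admp, at 4.68 RPKM against 8.62 in WT, by less than the median intron (-0.87). The chrd introns were at 0.664 RPKM in U1U2 MO, against 7.20, and its exons at 1.14 RPKM, against 14.2. Of the 7 genes only chrd was at least 4-fold lower in exons in U1U2 MO, where 1.39% of 13561 genes were. The introns of foxa3 were listed at 0 in U1U2 MO, against 1.19 RPKM in WT. With 1 library each these are values without a test.

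**Figure D4:**
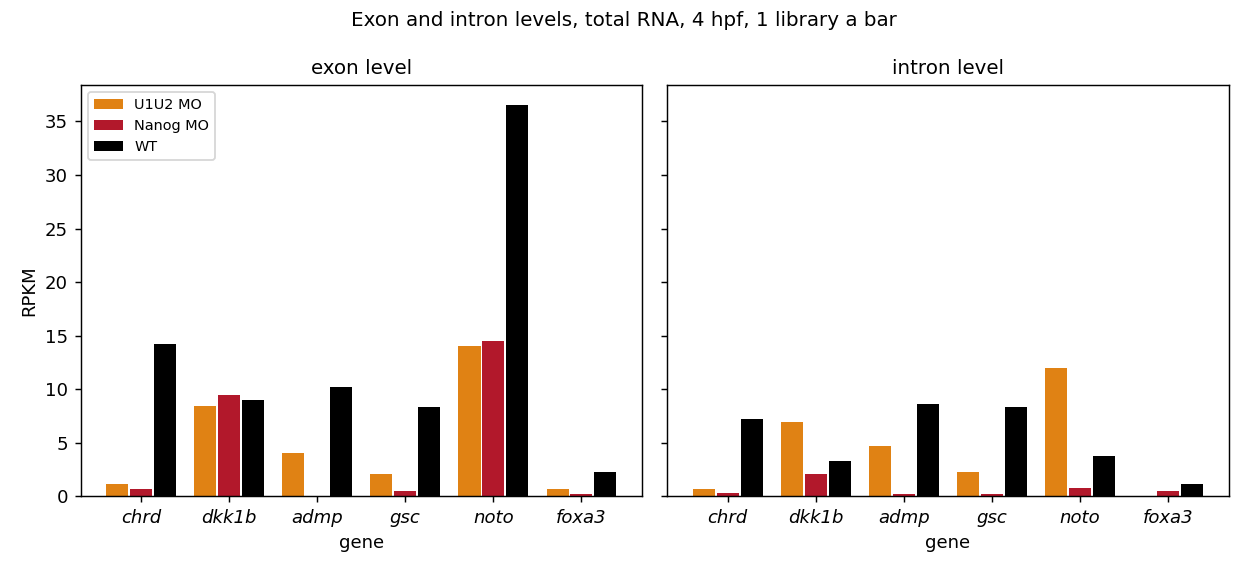
Exon (left) and intron (right) level in RPKM of the 6 organizer genes with introns, in U1U2 MO, Nanog MO and WT total RNA at 4 hpf, 1 library a bar. The U1U2 MO bar of noto is below WT in exons, 13.99 against 36.6 RPKM, and above it in introns, 11.99 against 3.72 RPKM.

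The rescue series followed the rescued triple loss, the triple loss and WT at 4 hpf in total RNA and at 6 and 8 hpf in poly(A)+ RNA. In the rescued embryos chrd was at 8.34, 73.7 and 82.7 RPKM at 4, 6 and 8 hpf, in the triple loss at 0.611, 7.94 and 7.04 RPKM, and in WT at 14.2, 133 and 135 RPKM. For admp the rescued levels were 9.91, 12.01 and 28.2 RPKM, those of the triple loss 0.053, 0.078 and 0.078 RPKM, and those of WT 10.2, 25.6 and 40.9 RPKM. Rescue mRNA thus came with levels between those of the triple loss and WT at every stage for both genes. For foxd3 the rescued levels were 6.29, 29.6 and 48.2 RPKM, those of the triple loss 0.245, 0.12 and 0.03 RPKM, and those of WT 10.3, 38.4 and 32.8 RPKM, so that rescue exceeded WT at 8 hpf.

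With stage as a block, chrd (3.20 ± 0.23, adjusted p = 0.00129), admp (4.77 ± 0.43, 0.0028) and foxd3 (5.10 ± 0.59, 0.0104) were higher in the rescued embryos than in the triple loss, where 0.605% of 16028 genes were called higher. The call of foxd3 was lost without the triple loss library at 6 hpf (0.0541) or the rescued one at 6 or 8 hpf (0.0767 and 0.0882). The other 4 did not pass over the 3 stages: foxa3 at 4.19 ± 0.84 (adjusted p = 0.102), gsc at 2.20 ± 0.53 (0.173), noto at 1.10 ± 0.40 (0.357) and dkk1b at 1.01 ± 0.36 (0.347). At 4 hpf the rescued level of gsc, 2.31 RPKM, was close to that of the triple loss, 1.42 RPKM, and below the 8.37 RPKM of WT. At 6 and 8 hpf gsc was at 15.1 and 16.5 RPKM in the rescued embryos, 2.02 and 1.08 RPKM in the triple loss, and 14.9 and 12.9 RPKM in WT. Without the triple loss library at 4 hpf foxa3 (5.54, 0.00023) and gsc (2.72, 0.0133) passed, and gsc also without the rescued library at 4 hpf (2.92, 0.0493). In the poly(A)+ libraries alone all 7 genes passed as higher after rescue, among them foxa3 at 5.68 (6.99e-06) and gsc at 3.03 (0.000324). The 0.605% belongs to the fit over all 9 libraries. No share of all genes is given for the poly(A)+ fit, so its count cannot be set against one. That fit also has fewer residual degrees of freedom than the fit over all 9 libraries.

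The triple loss itself was called lower than WT over 4 to 8 hpf for admp (-5.31 ± 0.43, adjusted p = 0.00158), foxd3 (-5.27 ± 0.59, 0.00716), foxa3 (-4.44 ± 0.84, 0.0287), chrd (-3.96 ± 0.23, 0.000442) and gsc (-2.63 ± 0.53, 0.0324), where 4.64% of genes were. The levels of foxa3 were 0.199, 1.19 and 1.54 RPKM at 4, 6 and 8 hpf in the triple loss, against 2.31, 80.3 and 108 RPKM in WT. The calls of gsc and foxa3 were lost when each of the 6 poly(A)+ libraries was left out in turn (0.0566 to 0.176), and that of foxd3 without the WT library at 6 or 8 hpf (0.069 and 0.0533). For noto the triple loss was at 12.5, 55.2 and 37.3 RPKM, against 36.6, 52.9 and 70.3 RPKM in WT, and for dkk1b at 7.24, 9.18 and 4.33 RPKM, against 8.97, 15.6 and 9.88 RPKM. Neither passed over the 3 stages (adjusted p of 0.167 and 0.162). In 1 of 16 settings dkk1b passed as lower, and its difference ran from -1.15 to -0.37 over them.

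Between the rescued embryos and WT no organizer gene passed over the 3 stages (limma, adjusted p of 0.122 to 0.882), where 0.799% of genes did in either direction and 3945 were under an unadjusted p of 0.05. The lowest was chrd, at -0.76 ± 0.23, which passed without the WT library at 4 hpf (-0.83, adjusted p = 0.0261) or the triple loss library at 4 hpf (0.0407). In poly(A)+ RNA alone chrd was lower in the rescued embryos (-0.78, adjusted p = 0.00511) and noto higher (0.93, adjusted p = 0.0175). No share of all genes is given for that fit, so these calls cannot be set against one. The rescued noto levels were 101 and 135 RPKM at 6 and 8 hpf, against 52.9 and 70.3 RPKM in WT. No condition of this series had a replicate at a stage, and stage and kind of RNA cannot be told apart.

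**Figure D5:**
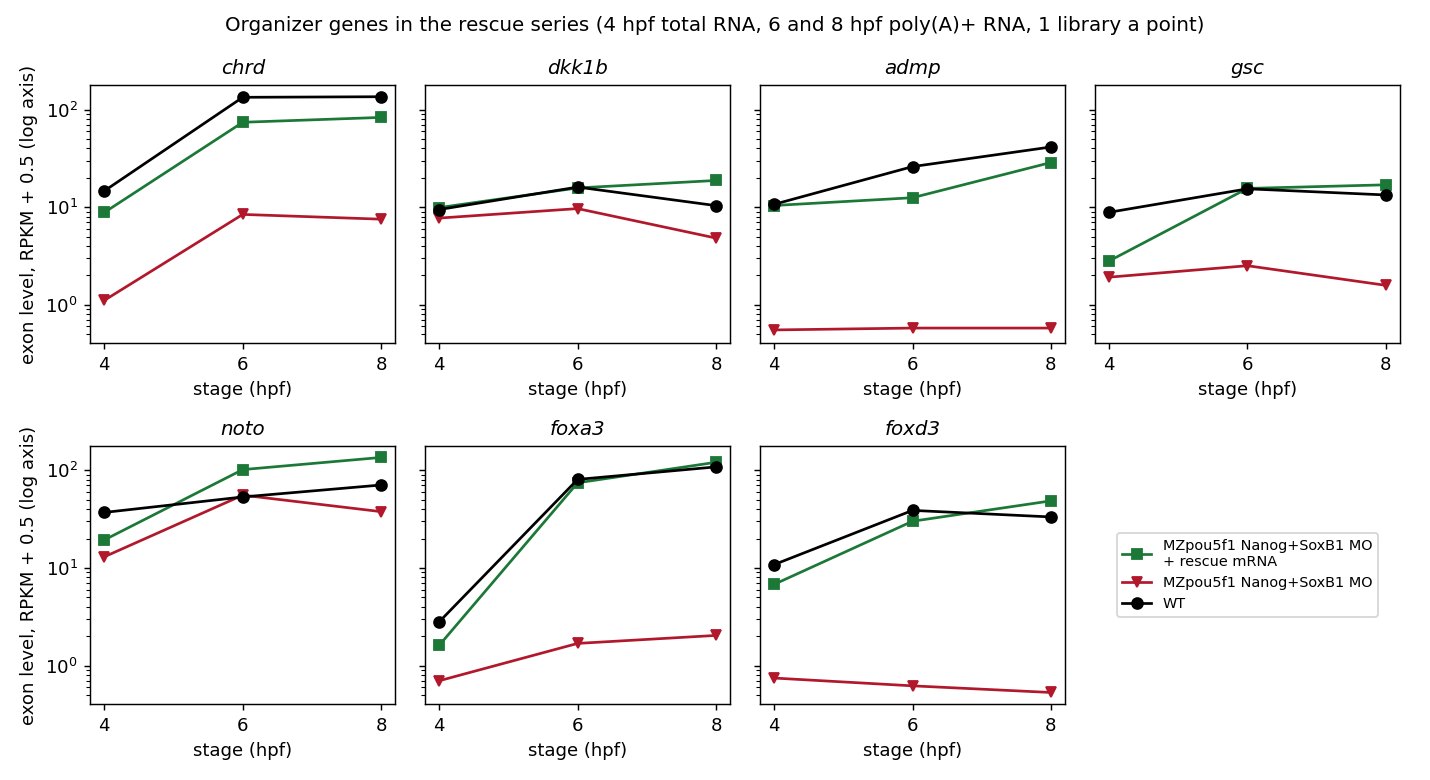
Exon level (RPKM + 0.5, log axis) of each organizer gene at 4 hpf (total RNA) and at 6 and 8 hpf (poly(A)+ RNA) in the rescued triple loss (green squares), the triple loss (red triangles) and WT (black circles), 1 library a point. For admp the triple loss stays at 0.053 to 0.078 RPKM while the rescued and WT lines lie at 9.91 to 40.9 RPKM, and for dkk1b the 3 lines lie within 4.33 to 18.3 RPKM.

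Other genes of the organizer and axis, a list with 13 measured members, were lower in Nanog+SoxB1 MO at 6 hpf for 10 members and higher for none, with a median of -1.63. Over all genes 14% were called lower and 30.3% higher, with a median of 0.30. Among them were otx2a (-4.11 ± 0.30), cyp26a1, which degrades retinoic acid (-3.85 ± 0.27), lhx1a (-3.16 ± 0.21) and sebox (-2.87 ± 0.34). Of the 10 measured entries of ventral and BMP genes, which cover 9 symbols, all 10 were lower, with a median of -2.61. They include eve1 (-6.99 ± 0.22), the BMP target id1 (-6.33 ± 0.12), bambia (-5.45 ± 0.25) and the ligand bmp7a (-5.26 ± 0.20). The measured genes opposing the organizer were thus lowered beside it. The list also names bmp2b, vox, vent, ved and szl, which matched no entry and were not measured. Of 12 Nodal pathway genes 4 were lower, among them the cofactors tdgf1 (-2.31 ± 0.16) and foxh1 (-2.40 ± 0.11), the yolk gene mxtx2 (-3.42 ± 0.27) and the antagonist lft2 (-1.52 ± 0.20), and 3 were higher, led by eomesa (2.70 ± 0.23), a share below that of all genes. Of 13 entries of the maternal Wnt pathway 6 were lower, among them 2 of wnt8a (-2.40 ± 0.15 and -2.07 ± 0.15), a ventral and lateral Wnt ligand, and 1, the maternal organizer gene hwa, was higher (1.13 ± 0.28), also below the share of all genes. The list of ventral genes also holds wnt8a.

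At 4 hpf the Nanog MO term lowered 4 of 6 other organizer and axis genes, led by net1 (-1.78 ± 0.23) and otx2a (-1.46 ± 0.29), 3 of 12 Nodal genes, mxtx2 (-4.21 ± 0.23), lft2 (-2.92 ± 0.23) and mixl1 (-1.37 ± 0.27), and 4 of 7 ventral and BMP entries, with id1 at -2.30 ± 0.29, where 2.34% of all genes were lower. Of 12 maternal Wnt entries none was called in either direction. In MZpou5f1 at 6 hpf 1 of 13 other organizer and axis genes was lower, fgf24 (-3.26 ± 0.34), and 5 of 10 ventral and BMP entries, led by bmp4 (-4.38 ± 0.35) and cdx4 (-3.37 ± 0.43), where 2.73% of all genes were lower. After rescue 2 of the 10 ventral and BMP entries were called higher, id1 (3.79 ± 0.50) and tll1 (2.77 ± 0.32), and none of the Nodal, Wnt or other organizer lists, where 0.605% of all genes were higher. Among markers of other cell types, 3 of 9 enveloping layer and 3 of 6 neuroectoderm entries were called higher after rescue. Rescued neuroectoderm sums were 1688, 2249 and 2631 RPKM at 4, 6 and 8 hpf, against 229, 611 and 509 RPKM in WT. Those of the enveloping layer were 157, 3539 and 4991 RPKM, against 196, 5132 and 6450 RPKM. For the yolk syncytial layer they were 40.3, 181.1 and 245.2 RPKM, against 50.2, 277.2 and 295.5 RPKM in WT. The sums of the triple loss were 3.5, 50.2 and 57.2 RPKM for the neuroectoderm and 21.7, 1118.5 and 1509.4 RPKM for the enveloping layer. For the yolk syncytial layer they were 1.5, 7.8 and 7.7 RPKM. The neuroectoderm list holds sox2, sox3 and sox19a, and the labels do not say whether the rescue mRNA held SoxB1 messages. Injected and embryonic message cannot be told apart there.

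Markers of other cell types moved in the same libraries. In Nanog+SoxB1 MO at 6 hpf, 7 of 9 enveloping layer markers, 6 of 6 yolk syncytial layer markers and 6 of 6 neuroectoderm markers were called lower, where 14% of all genes were. Their summed levels were 1083 and 1236 RPKM in Nanog+SoxB1 MO, against 3426 to 4174 RPKM in WT, for the enveloping layer. For the yolk syncytial layer they were 12.7 and 14.6 RPKM, against 382 to 437 RPKM, and for the neuroectoderm 81.6 and 81.7 RPKM, against 647 to 734 RPKM. No marker of these lists was listed at 0 in Nanog+SoxB1 MO except otx2b. Of 7 maternal oocyte-derived genes 6 were higher, where 30.3% of all genes were, with sums of 591 and 666 RPKM in Nanog+SoxB1 MO, against 89.8 to 189 RPKM in WT. Of 7 germ plasm genes 5 were higher and of 5 p53 response genes 3 were. In the Nanog MO term at 4 hpf, 1 of 7 enveloping layer, 2 of 2 yolk syncytial layer and 3 of 3 neuroectoderm markers were lower, and 5 of 7 maternal oocyte-derived and 6 of 7 germ plasm genes were higher, where 2.34% of all genes were lower and 5.35% higher.

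The counts of the same markers differed among the other losses at 6 hpf. In the triple loss 9 of 9 enveloping layer, 6 of 6 yolk syncytial layer and 5 of 6 neuroectoderm markers were called lower, where 15.7% of all genes were. Their sums were 332, 1.4 and 21.3 RPKM in the triple loss, below every WT library. Of 7 maternal oocyte-derived genes 6 were higher there, where 32.8% of all genes were, with a sum of 1029 RPKM in the triple loss, against 89.8 to 189 RPKM in WT. In Nanog MO 7 of 9, 6 of 6 and 4 of 6 markers of the 3 cell types were lower, where 10.1% of all genes were. In MZpou5f1 SoxB1 MO 7 of 9, 4 of 6 and 2 of 6 were lower, where 9.04% of all genes were. In MZpou5f1 1 of 9, 0 of 6 and 1 of 6 were lower, where 2.73% of all genes were, and 1 other neuroectoderm marker was higher. The part of these cell types and of the maternal RNA in the organizer values was not tested.

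Over the 24 total RNA libraries, the organizer genes followed each other to different degrees. The closest pairs were noto and dkk1b (Pearson r = 0.952 of log2 levels) and gsc and foxa3 (0.943), and the loosest was noto and foxd3 (0.424). The non-member most like each gene was depdc7 for chrd (r = 0.967), ier5 for dkk1b (0.97), cxcr4 for admp (0.953), nradd for gsc (0.953), ier5l for noto (0.971), zic2 for foxa3 (0.967) and klf2b for foxd3 (0.93). With the mean of the 7 genes, marcksl1b (0.977), pcdh1 (0.971) and foxd5 (0.964) had the highest correlations. These libraries share stages and treatments, so the correlations are descriptions.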

How the data were processed

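Per the labels' protocols, RNA from whole zebrafish embryos was sequenced as total RNA depleted of ribosomal RNA, in strand-specific libraries, or as poly(A)+ RNA. The authors deposited RPKM values per gene for exons (27997 entries, 31 libraries) and for introns (24750 entries, 24 total RNA libraries). Per the submitters' processing notes, the build was Zv9 (danRer7) and the tools named are TopHat2 2.0.7, Bowtie 0.12.9 and CASAVA 1.8.2, while the role of each, the counting and the annotation are not given in the sources used here. These RPKM values, as deposited, are not counts, and the absolute depth of the libraries is unknown, so no counting interval is given; relative depth spanned 11.5-fold. Entries that join overlapping genes (846 exon and 626 intron entries) were left out, and 71.8% and 74.8% of the rest matched a symbol. Table columns of no sample numbered 0, and 4 profiling libraries were not analysed here.

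Members were matched by symbol, and genes of the other lists by symbol or synonym. Many listed symbols matched no entry, among them tbxta, shha and hhex (organizer and axis), ndr2 (Nodal) and axin2 (maternal Wnt). The lists are therefore incomplete, and some of these genes may be present under older names. The members, the gene lists and the stage comparisons were chosen with earlier results of these data known. Levels were tested as log2(RPKM + 0.5) for exons and log2(RPKM + 0.1) for introns, which understates the change of low genes, after keeping entries at 1 RPKM (exons) or 0.5 RPKM (introns) in 2 or more libraries. limma 3.58.1 (R 4.3.3) with trend was fitted over all libraries of a stage or series, with Benjamini-Hochberg adjustment over all entries and a threshold of 0.05. Conditions with 1 library borrow the spread of the others, so the main fits have 3 or 4 residual degrees of freedom. Most fits over fewer libraries have fewer. The fit was run on data simulated from its own fitted means and spread. That cannot check whether conditions with 1 library vary like the replicated ones. Within each list (other organizer and axis genes, Nodal, ventral and BMP, maternal Wnt, and markers of the enveloping layer, yolk syncytial layer, neuroectoderm, germ plasm, maternal oocyte RNA and p53 response) at most the 4 called genes with the widest change in each direction are named. Deviations of same-numbered Nanog+SoxB1 MO and WT libraries at 6 hpf correlated at 0.0856 and 0.0625, with 2 pairs. The deviations of the 2 Nanog+SoxB1 MO replicates mirror each other, so this check cannot exclude pairing by replicate number. Alternatives were other pseudocounts, filters, median scaling, no trend, each library left out, a replicate block, and poly(A)+ libraries alone. Python 3.11.15 with pandas 2.3.3 and matplotlib 3.10.9 served for tables and plots. No sequences are shown.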

Additional observations from a re-analysis of the deposited data

Results flagged for a closer look

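The difference of a condition from WT was set at 6 hpf against 4 hpf for the 7 genes in 6 conditions, and 7 differences passed (limma, adjusted p under 0.05). Of all 17129 genes, 1.34% were called higher in Nanog MO and 6.25% in Nanog+SoxB1 MO. In the triple loss 9.9% were called higher and 5.28% lower, and under cycloheximide 19.5% higher and 10.9% lower. The calls of single genes under cycloheximide are thus near the shares of all genes. For noto the difference was 1.78 in Nanog MO, 2.32 in Nanog+SoxB1 MO and 1.22 in the triple loss (log2, 6 hpf minus 4 hpf), so that noto lay nearer to WT at the later stage. For chrd it was 2.74 in Nanog+SoxB1 MO. For foxa3 it was -3.41 in the triple loss and -3.98 under cycloheximide, and for foxd3 it was 2.61 under cycloheximide. The 4 hpf side of each rests on 1 library of the condition and 1 of WT, and all share the WT libraries. Only the foxa3 difference under cycloheximide passed in every setting tried. Both foxa3 differences are bounded at 4 hpf, where WT held 2.31 RPKM and 0.5 was added before the log. At 4 and 6 hpf foxa3 was at 0.011 and 0.076 RPKM under cycloheximide and at 0.199 and 0.675 RPKM in the triple loss. The WT mean was 49.6 RPKM at 6 hpf, so a wider loss and the WT rise cannot be told apart.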

How the results depend on the processing

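Over all comparisons and settings, 247 of 312 counts of organizer genes called stayed within 1.5 times their value and 65 did not. Among 2148 values of single genes none changed sign while called, 110 lost and 39 gained a call. Without the filter on low values the count was 1 for Nanog+SoxB1 MO against Nanog MO, 0 for the SoxB1 MO term, 1 for the MZpou5f1 term and 3 for the triple loss against WT over 4 to 8 hpf. A filter at 5 RPKM gave 3 for the Nanog MO term at 4 hpf, and limma without trend gave 0 for the SoxB1 MO term. In poly(A)+ libraries alone the count was 7 for rescue against the triple loss and 2 for rescue against WT, with no share of all genes given for either. For the differences between stages, Nanog MO gave 0 with a pseudocount of 0.1 or without trend. MZpou5f1 gave 1 with no filter or a filter at 5 RPKM, and MZpou5f1 SoxB1 MO gave 1 with either and with median scaling. The triple loss gave 1 with median scaling or without trend. Cycloheximide gave 1 with a pseudocount of 0.1 or no filter, and 4 with a pseudocount of 1, a filter at 5 RPKM or median scaling. The cause was not tested.

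With 1 library or replicate left out in turn, the counts ran from 0 to 1 for MZpou5f1 at 6 hpf and from 0 to 2 for Nanog+SoxB1 MO against Nanog MO. They were 0 throughout for the SoxB1 MO term, 1 to 3 for the MZpou5f1 term, 2 to 5 for the triple loss over 4 to 8 hpf, 2 to 5 for rescue against the triple loss and 0 to 1 for rescue against WT. Between stages they were 0 to 1 for Nanog MO, 0 to 2 for Nanog+SoxB1 MO and the triple loss, and 1 to 2 for cycloheximide. Calls over all genes also moved in the same fits, and whether the changes are particular to the organizer genes was not tested. Over all genes the calls ran from 0 to 1 for the SoxB1 MO term. For the MZpou5f1 term they ran from 4756 to 5855, where the main fit called 3500 genes higher and 2613 lower. Over 4 to 8 hpf they ran from 46 to 7886 for the triple loss against WT. For rescue they ran from 27 to 2414 against the triple loss and from 0 to 4747 against WT. The replicate block for Nanog+SoxB1 MO against WT at 6 hpf called 5 organizer genes and 3 introns, as without it, with gsc at -2.79 and chrd at -1.57, and changed no call.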

Other observations

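Total RNA and poly(A)+ RNA of WT embryos gave different levels for the same genes at the same stage, each with its own scaling. At 6 hpf foxa3 was at 80.3 RPKM in poly(A)+ RNA, above the 48.3 to 52.0 RPKM of the 3 total RNA libraries, while gsc was at 14.9 RPKM, below their 28.7 to 37.1 RPKM. The levels of noto and dkk1b in poly(A)+ RNA, 52.9 and 15.6 RPKM, also lay below all 3 total RNA libraries, those of foxd3 and admp, 38.4 and 25.6 RPKM, above them, and that of chrd, 133 RPKM, within them. At 4 hpf chrd was at 5.09 RPKM in poly(A)+ RNA and 14.2 RPKM in total RNA, and foxd3 at 19.4 and 10.3 RPKM. The poly(A)+ RNA has 1 WT library a stage, and no test was made.

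Introns of the rescued triple loss at 4 hpf were at 11.05 RPKM for admp and 5.16 RPKM for chrd, against 8.62 and 7.20 RPKM in WT. Those of gsc were at 1.79 RPKM in the rescued embryos, against 8.33 RPKM in WT. In the triple loss without rescue the introns were at 0.019 RPKM for admp, 0.252 RPKM for chrd and 0.264 RPKM for gsc. With 1 library of each, no test was made.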
